A study of Oryza sativa with 16 samples.

Results

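Shoot-selective predicted CDS models are coding sequences, predicted from the rice genome, whose probes gave a clear signal in Nipponbare shoot and a low one in Nipponbare root, callus and panicle. They were selected on the array signals themselves, so their levels in these 4 tissues are a description and carry no test. Every channel of every array was scaled so that its median signal over all probes other than controls was 1000, and a value was set to 0 where the scanner software did not find the spot well above background. The value of a tissue was the median over its channels, and a model was a member when its value was over 2000 in shoot and under 1000 in each of root, callus and panicle. This chose 157 of the 21761 CDS models on the arrays (0.721%). The same limits chose 106 CDS models for root, 32 for callus and 50 for panicle. Identifiers are written here without the ending _CDS that they carry on the array.

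Leaves and stems of a seedling make up its shoot, the green part of the plant, in which chloroplasts capture light and fix carbon. Roots take up water and ions, the panicle is the flowering head, and callus is a mass of undifferentiated cells that grows from the embryo's scutellum under auxin. A gene model predicted by software is a proposal about the genome, and a signal in 1 tissue and not in others is one way to see that RNA matching it is made. Names and functions of the 157 models were not analysed here, since 0 of their identifiers were found among the 39387 genes of the RefSeq rice annotation (ASM3414082v1), and the sequences of their probes were not used here.

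Nipponbare is a japonica cultivar and IR64 an indica cultivar, and neither carried a transgene, mutation or treatment according to the labels. Total RNA of each sample was pooled from 10 plants, and each of IR64 shoot, Nipponbare callus, Nipponbare panicle and Nipponbare root was hybridized against Nipponbare shoot on 60-mer two-color arrays, in 2 replicates with exchanged dyes. A hybridization covered 2 arrays, which carried different probes, so Nipponbare shoot was read in 8 hybridizations and every other sample in 2. The labels gave shoots of both cultivars grown for 10 days in soil in a greenhouse (the methods give a later age), roots of 10 days from hydroponic culture in a growth chamber, callus of 28 days on induction medium and panicles from the field. Shoot RNA came from Trizol and the RNA of the other tissues from a column kit, so tissue, RNA kit and growth conditions cannot be told apart between shoot and the rest. Each tissue had 2 numbered extracts, 1 per replicate. Shoot extract 1 was used in 3 hybridizations, all in Cy5, and shoot extract 2 in 5 hybridizations, 4 of them in Cy3. Whether the extracts of a tissue came from separate pools of plants was not stated, so p-values measure the spread between hybridizations.

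Between 80.5% and 95.5% of the probes were well above background in a channel. The control sequence named CAB_QC, whose identity the files do not state, was printed 98 times per array. No tissue pattern of it was known in advance, so its ratios are a description and no check of the labels. Its median log2 ratio over Nipponbare shoot was between 0.13 and 0.37 in IR64 shoot, between -2.93 and -2.73 in panicle, between -4.62 and -4.35 in root and between -5.38 and -4.95 in callus. Marker genes of cell types were not analysed here, because no identifier could be matched to a gene name. In RNA from whole tissue, fewer cells of a type and less RNA per cell cannot be told apart.

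The members formed the edge of a broad distribution rather than a separate cloud. Of the 3779 CDS models over 2000 in shoot, 157 (4.15%) were under 1000 in the other 3 tissues, and 15623 CDS models were under 1000 in all of root, callus and panicle. The same share was 3.41% of the 3105 models over 2000 in root, 1.71% of the 2916 in panicle and 1.05% of the 3054 in callus. The median of the members was 2782 in shoot (range 2007 to 40980), 561 in root (108 to 985), 583 in callus (120 to 999) and 601 in panicle (100 to 998). The medians over all CDS models were 369, 328, 299 and 318.

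**Figure D1:**
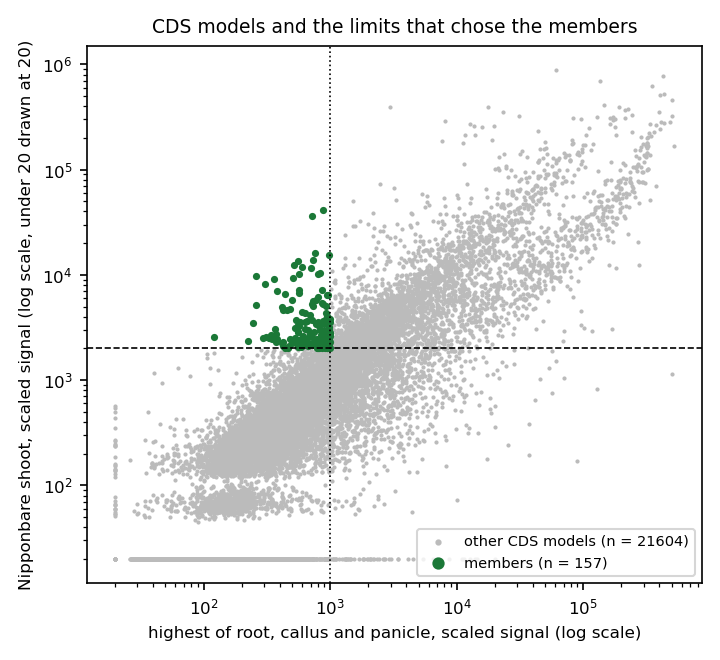
Scaled signal of every CDS model in Nipponbare shoot (vertical, log scale) against the highest of its root, callus and panicle values (horizontal, log scale), with values under 20 drawn at 20. The dashed line is the shoot limit of 2000 and the dotted line the limit of 1000 for the other tissues. The 157 members fill the upper left corner and adjoin the 21604 other CDS models along both lines.

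Most members lay near the limits. Of the 157, 93 had a shoot value of at most 3000, 31 a value from 3000 to 5000, 21 a value from 5000 to 10000 and 12 a value over 10000. The shoot value was 4.33 times the highest of the other 3 at the median (range 2.02 to 50.2). It was at least 10 times as high in 28 members and under 3 times in 33. Just inside the shoot limit were 9630.m01750, at 2007, and 9633.m03207, at 2012, and just outside were 9631.m06293, at 1998, and 9630.m05494, at 1983. Just inside the limit of the other tissues were 9637.m03159, with 999 in callus, and 9632.m05714, with 998 in panicle. Just outside it were 9635.m03638, with 1002 in root, and 9634.m02196, with 1005 in panicle. Over the 8 shoot hybridizations 9630.m01750 ranged from 1520 to 2806, so single hybridizations of the models next to the limit fell on both sides of it.

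The 10 members with the highest shoot value were far above the shoot limit, and their highest value in the other tissues lay between 518 and 975. Signals of different probes depend on the probe and are not set against each other as amounts of RNA. The signal of 9634.m02801 was 29638, 32869, 40666, 34810, 41294, 41761, 43419 and 44420 in the 8 shoot hybridizations. It was 441 and 452 in root, 298 and 346 in callus, and 863 and 904 in panicle. The lowest shoot value of this model was therefore above every value of the other tissues, and its shoot value was 46.4 times its panicle value.

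The signal of 9634.m00739 ranged from 28691 to 44921 in shoot, with a median of 35849. It was 467 and 618 in root, 756 and 539 in callus, and 619 and 811 in panicle. This was the member with the widest distance between shoot and the next tissue, at 50.2 times. The groups did not overlap.

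The next 8 by shoot value were 9637.m01565, 9634.m02751, 9633.m00575, 9640.m02435, 9640.m03225, 9630.m02402, 9639.m03480 and 9630.m00735. Their shoot values ran from 16116 down to 10459. Their highest value in a single root, callus or panicle hybridization was between 592, in 9640.m03225, and 1156, in 9634.m02751. The shoot value was between 12.6 times (9630.m00735) and 24.3 times (9640.m02435) the highest of the other tissues. In all 8, every shoot hybridization was above every hybridization of the other tissues.

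Members differed in how low the other tissues were. All 157 were well above background in all 6 hybridizations of root, callus and panicle, so none of them was silent there by the scanner's test. None held a saturated spot, and 7 held a spot marked as an outlier in at least 1 hybridization. In 32 members root, callus and panicle were all under 500, and in 3 of them all were under 250. These 3 were 9629.m01035, with 3460 in shoot against 183, 120 and 246 in root, callus and panicle, 9635.m01931, with 2569 against 108, 120 and 100, and 9630.m01907, with 2349 against 224, 222 and 129.

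The tissues other than shoot were close to each other in most members. Root was the highest of the 3 in 53 members, callus in 47 and panicle in 57. The highest of the 3 was 1.34 times the lowest at the median (range 1.04 to 4.76), and it was under 2 times the lowest in 132 members. Across the 157 members the log2 values of root and callus had r = 0.77, those of root and panicle r = 0.64 and those of callus and panicle r = 0.66. These points share probes and a common limit, so the values are descriptions. The log2 value of shoot had r = -0.10 with root, -0.12 with callus and 0.07 with panicle.

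A few members set 1 of the 3 tissues apart, and they were picked after their values were seen. Panicle was over 2 times both root and callus in 6 members. In 9640.m03634 panicle was 762 and 863, against 252 and 225 in root and 158 and 184 in callus, and shoot was 3236. In 9635.m01183 panicle was 683 and 777, against 267 and 313 in root and 162 and 328 in callus, and shoot was 5591. The other 4 were 9631.m04612, 9638.m02595, 9631.m01432 and 9636.m02139. Their panicle values were between 421 and 829.

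Root was over 2 times both others in 9629.m05640, at 279 and 555 against 209 and 137 in callus and 179 and 227 in panicle. Callus was under 0.5 times both others in 9629.m05768, 9629.m05727 and 9630.m01212. In the last of these callus was 196 and 152, while root was 471 and 962 and panicle 539 and 1072. Root was under 0.5 times both others in 9638.m01682, at 113 and 150. The rule held the median of the 2 hybridizations of each of these 3 tissues under 1000, so no single one could pass 2000.

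Single hybridizations were also set against the limits. The rule used the medians over these same values, so the counts are descriptions and nothing is read from them. The median over the members was between 2549 and 3186 in the 8 shoot hybridizations and between 546 and 604 in the 6 hybridizations of root, callus and panicle. Between 116 and 148 of the 157 members passed 2000 in a given shoot hybridization, 81 passed it in all 8, and 13 in only 4. In 120 members all 6 hybridizations of the other tissues were under 1000. In 67 members both held in every hybridization.

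In 153 members (97.5%) all 8 shoot hybridizations were above all 6 of the other tissues. Over all CDS models this share was 12.0%, and since the rule used these values nothing is read from the difference. The 4 exceptions were 9637.m03159, 9638.m03765, 9634.m03720 and 9638.m00105. In 9637.m03159 a single shoot hybridization, on the root arrays of replicate 2, gave 936 while the next lowest gave 2549 and the highest callus value was 1140.

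**Figure D2:**
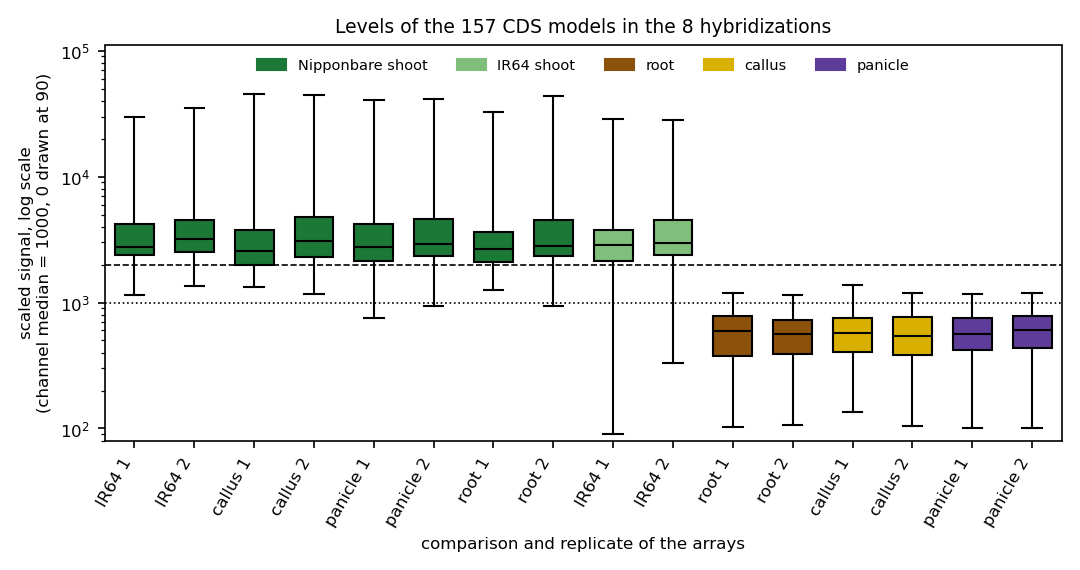
Levels of the 157 members in each of the 8 hybridizations, split by sample (scaled signal on a log scale, boxes are quartiles, the line the median, whiskers the lowest and highest member, and 0 drawn at 90). The horizontal axis names the comparison and replicate of the arrays, the dashed line is at 2000 and the dotted line at 1000. Medians lie between 2549 and 3186 in Nipponbare shoot, at 2873 and 2961 in IR64 shoot, and between 546 and 604 in the other tissues.

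The rule was also applied to each replicate alone and the chosen models were looked up in the other. The 143 CDS models chosen in replicate 1 met both limits in replicate 2 in 98 cases (68.5%), against 0.744% of all CDS models. All 143 had their highest value of the 4 Nipponbare tissues in shoot, at 4.54 times the next tissue at the median and 1.13 times at the least. The 162 models chosen in replicate 2 met both limits in replicate 1 in the same 98 cases (60.5%), against 0.657% of all CDS models. Shoot was highest in 161 of them, at 4.03 times the next tissue at the median. The exception was 9638.m02914, with 1315 in shoot and 2059 in the highest other tissue. The replicates are not wholly separate, since shoot extract 2 was used on the callus arrays of both. Of all CDS models 17.1% passed 2000 in shoot in replicate 2 and 17.8% in replicate 1, so most could not meet the limits. Both replicates entered the rule that chose the members. These counts describe how far the hybridizations repeat, and nothing is read from the difference to all CDS models.

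In log2 ratios taken on the same arrays, the median over the members was -2.34 in root over shoot, -2.36 in callus over shoot and -2.33 in panicle over shoot. The medians over all CDS models were -0.22, -0.19 and -0.23. The ratios of the members lay between -6.36 and -0.78 in root, between -7.01 and -0.97 in callus and between -5.67 and -0.94 in panicle.

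IR64 shoot was not used by the rule, although the Nipponbare shoot channels of the same arrays were. The signal of the members in IR64 shoot had a median of 2936 (range 217 to 28162), and 134 of 157 (85.4%) were over 2000 there, against 18.2% of all CDS models. The count was 130 in each of the 2 IR64 hybridizations, and 120 members passed 2000 in both. In 149 members (94.9%) both IR64 hybridizations were above all 6 hybridizations of root, callus and panicle, against 31.5% of all CDS models. The members were chosen over 2000 in Nipponbare shoot and under 1000 in root, callus and panicle, so nothing is read from either difference. The shares over the other CDS models above 2000 in Nipponbare shoot were not computed. The models that the same limits chose for the other tissues were low in IR64 shoot. None of the 106 for root and none of the 32 for callus was over 2000 there, and 3 of the 50 for panicle were. Those models had to be under 1000 in Nipponbare shoot, which favors low values in IR64 shoot, so nothing is read from this contrast.

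The median log2 ratio of IR64 over Nipponbare shoot was -0.03 over the members, at -0.02 in replicate 1 and -0.07 in replicate 2. Over all CDS models it was 0.04, at -0.02 and 0.09. In 122 members the ratio was within 0.5 of 0 on the log2 scale. Of the 153 members measured in both replicates, 42 were higher in IR64 in both, 62 lower in both and 49 neither. Across these 153 the ratios of replicates 1 and 2 had r = 0.90, over points that share arrays within a replicate.

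Differences in signal between the cultivars were tested with limma on the log2 ratios of both replicates, with p-values adjusted by Benjamini and Hochberg over all 83038 probes tested. At an adjusted p under 0.05, 16 of the 157 members (10.2%) were lower in IR64 and 2 (1.27%) were higher. The shares over all CDS models were 1.25% lower and 1.45% higher, and over the 3622 other CDS models above 2000 in Nipponbare shoot they were 2.62% lower and 1.74% higher. The share called higher was near the background, and the share called lower was above it. The members were chosen for a high value in Nipponbare and not in IR64, which favors lower ratios in IR64. The probes were designed on Nipponbare sequences. The paper proposes that variation in the genome sequence could lower IR64 signals, and it left IR64 out of its further analyses. Less RNA in IR64 and weaker binding of a probe to an IR64 sequence cannot be told apart in these ratios. With members chosen without the shoot channels of the IR64 arrays, the same 16 models were called lower among 145 members (11.0%). The fit took its estimate of the spread from the arrays of all 4 comparisons. On the IR64 arrays alone, with 2 ratios per probe, limma called 0 members in either direction, with 27 (17.2%) at an unadjusted p under 0.05, against 5.58% of all CDS models. In the fit over all arrays 32 (20.4%) were at an unadjusted p under 0.05, against 8.94% of all CDS models.

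**Figure D3:**
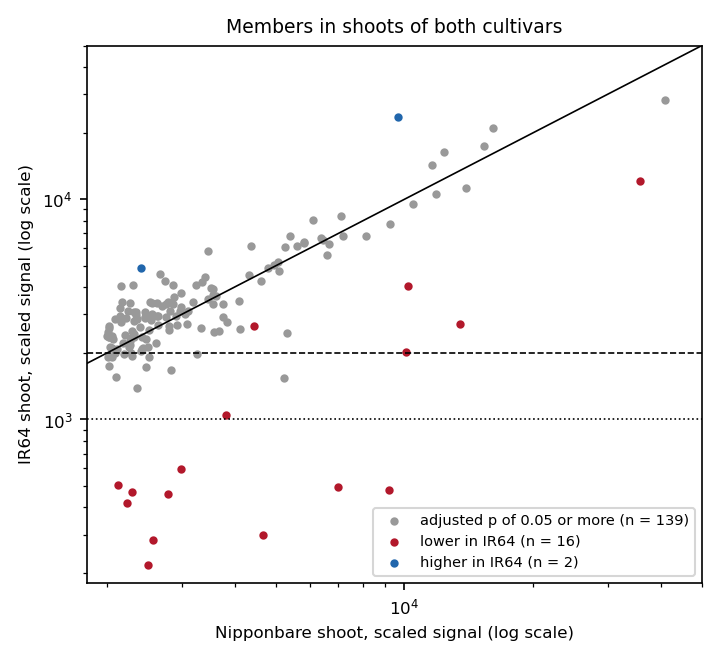
Scaled signal of the 157 members in IR64 shoot (vertical) against Nipponbare shoot (horizontal), both on log scales, with the diagonal of equal values as a solid line, 2000 dashed and 1000 dotted. Red points are the 16 members lower in IR64 and blue points the 2 members higher, by limma at an adjusted p under 0.05, and the 139 grey points were not called. The level on an axis is a median over all hybridizations of a sample and the test used ratios on the IR64 arrays, so a grey point such as 9631.m00517, at 5218 and 1550, can lie off the diagonal.

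The 16 lower members fell into those near the level of the other tissues and those that stayed high. In 10 of them IR64 shoot was under 1000 in both hybridizations. Those 10 were the only members under 1000 in IR64 shoot. In 1 more, 9634.m01840, the IR64 value was 1050, from 715 and 1385. In the remaining 5 it was over 2000. All 16 had a ratio below 0 in both replicates, and in all 16 both IR64 hybridizations were below all 8 of Nipponbare shoot. Among all members 24 (15.3%) were below in this way, against 2.93% of all CDS models. The calls rest on these ratios and the rule on these Nipponbare values, so nothing is read from these counts.

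The widest difference was in 9629.m00196. Its signal was 415 and 546 in IR64 shoot, and between 7479 and 11597 in Nipponbare shoot, with a median of 9216. Root, callus and panicle were at 360, 296 and 282. IR64 shoot was thus close to the other tissues and far from Nipponbare shoot. The log2 ratio was -4.33 and -4.13 in the replicates and -4.23 in the fit (SE 0.14, limma adjusted p = 0.000137).

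The next was 9629.m00189. Its signal was 490 and 499 in IR64 shoot, and between 4278 and 7961 in Nipponbare shoot. Root, callus and panicle were at 373, 365 and 381. The log2 ratio was -3.58 (SE 0.26, limma adjusted p = 0.000703).

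In 9635.m01931 IR64 shoot was at 237 and 331 and Nipponbare shoot between 2215 and 3155. Here IR64 shoot was still above root, callus and panicle, none of which passed 134 in any hybridization. The log2 ratio was -3.10 (SE 0.19, limma adjusted p = 0.000656). Of the other members that the rule for naming selected, 9638.m01082 had a log2 ratio of -2.39 (SE 0.25, limma adjusted p = 0.00273) and 9638.m01195 one of -2.35 (SE 0.30, limma adjusted p = 0.008). The call of 9638.m01682, at a log2 ratio of -2.03, was lost without IR64 replicate 2 (limma adjusted p = 0.0503).

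In 4 of the 16 the IR64 value was under the highest value of root, callus and panicle. For 9638.m01082 it was 459, against 863 in callus. For 9635.m01719 it was 596, against 668 in panicle. The other 2, 9634.m00101 and 9629.m05727, were not well above background in IR64 replicate 1 and stood at 434 and 595 in replicate 2. They were well above background in 1 of 2 IR64 hybridizations, and their log2 ratios of -3.24 (SE 0.41) and -3.21 (SE 0.39) rest in part on a dim spot.

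The 5 lower members that stayed over 2000 in IR64 were 9640.m02435, 9639.m03833, 9634.m00739, 9634.m00729 and 9629.m03912. In 9640.m02435 IR64 shoot was at 2228 and 3206 and Nipponbare shoot between 9762 and 18397, with a log2 ratio of -2.11 (SE 0.17, limma adjusted p = 0.000884). In 9634.m00739 IR64 shoot was at 12323 and 11952 and Nipponbare shoot between 28691 and 44921, with a log2 ratio of -1.29 (SE 0.14, limma adjusted p = 0.00454). Even so, the IR64 value of this model was over 10 times every value of root, callus and panicle. The smallest difference of the 16 was in 9629.m03912, with a log2 ratio of -0.91 (SE 0.19, limma adjusted p = 0.048). Its call was lost when either replicate of IR64, callus or panicle was left out (limma adjusted p from 0.0865 to 0.222) and when ratios were centred on the array median (limma adjusted p = 0.0698).

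The 2 higher members were 9631.m04325 and 9630.m01212. The signal of 9631.m04325 was 19521 and 27917 in IR64 shoot, and between 8870 and 13064 in Nipponbare shoot. It was between 177 and 282 in root, callus and panicle. The log2 ratio was 1.33 (SE 0.18, limma adjusted p = 0.00722). The signal of 9630.m01212 was 4761 and 4978 in IR64 shoot and between 1950 and 3174 in Nipponbare shoot, with a log2 ratio of 1.03 (SE 0.19, limma adjusted p = 0.0273). The call of 9631.m04325 was lost without IR64 replicate 2 (limma adjusted p = 0.0684), and that of 9630.m01212 without either replicate of IR64, callus or root (limma adjusted p from 0.0535 to 0.125).

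The next highest ratios missed the threshold. They were 0.78 in 9629.m01035 (SE 0.18, limma adjusted p = 0.0611), 0.63 in 9631.m04838 (SE 0.20, limma adjusted p = 0.161) and 0.61 in 9631.m05893 (SE 0.14, limma adjusted p = 0.0657). Both IR64 hybridizations of 9629.m01035, at 5718 and 5877, were above the highest of the 8 Nipponbare shoot hybridizations, at 3777. In 15 members (9.55%, against 4.53% of all CDS models) both IR64 hybridizations were above all 8 of Nipponbare shoot, and in 24 (15.3%, against 2.93%) both were below. The rule used the Nipponbare values, so nothing is read from either difference.

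**Figure D4:**
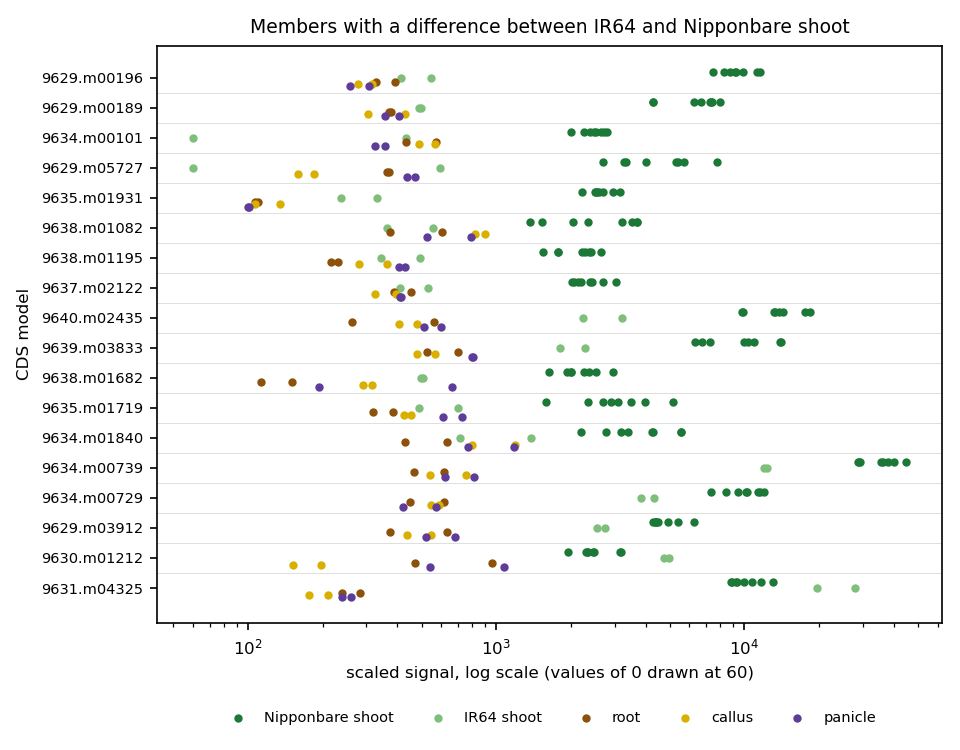
Scaled signal (horizontal, log scale, 0 drawn at 60) of the 18 members that differed between the cultivars, each on its own line (vertical), in every hybridization of each sample. From top to bottom the models run from the lowest to the highest log2 ratio of IR64 over Nipponbare shoot, from -4.23 to 1.33. In 10 of the models both IR64 points lie under 1000, and in all 18 they lie outside the range of the 8 Nipponbare shoot points. The models were called on ratios from these arrays, so this is a description.

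A list chosen with IR64 shoot in place of Nipponbare shoot held 286 CDS models. It shared 134 with the members, which were 85.4% of the members and 46.9% of the IR64 list. The 152 models of that list that were no members had a median of 1464 in Nipponbare shoot, and 42 of them were under 1000. The IR64 value rests on 2 hybridizations, so a single high spot can carry it. A low Nipponbare median did not always go with a difference on the IR64 arrays. In 9634.m02811, at 16103 in IR64 and 208 in Nipponbare shoot, the log2 ratio on the same arrays was -0.34. In 9640.m00591, at 8115 and 229, it was -0.36. In 9639.m02892, 9632.m04206 and 9635.m01177 it was 5.96, 6.27 and 5.08. The median over all CDS models was 461 in IR64 and 369 in Nipponbare shoot. In 191 of the 286 both hybridizations passed 2000, and 120 of these were members.

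Some members had identifiers with close numbers. Positions in the genome were not analysed here, so whether close numbers mean neighboring genes was not tested. The first 4 digits take 12 values, whose meaning the files do not state, and between 0.29% and 1.2% of the CDS models of a value were members. Within a value, 7 pairs of members had numbers that differed by at most 10, and 13 members (8.28%) were in such a pair. Of all CDS models 5.53% had a member within that distance.

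Of these pairs, 9634.m00729 and 9634.m00739 had no other CDS model of the arrays between them. Both were high in Nipponbare shoot, at 10181 and 35849, and between 496 and 715 in every other Nipponbare tissue. Both were lower in IR64 shoot, with log2 ratios of -1.23 and -1.29. In 9634.m00729 IR64 shoot was at 4305 and 3816, against 7368 to 11952 in Nipponbare shoot.

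In 9629.m00189 and 9629.m00196, described above, both ratios were under -3 on the log2 scale. The CDS model between them, 9629.m00191, stood at 0 in all 5 samples. The member on the other side, 9629.m00183, was at 2326 in Nipponbare and 2380 in IR64 shoot, with a log2 ratio of -0.08. Of these 3 members the last 2 were called lower in IR64 and the first was not. They were described after their values were seen.

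The other pairs were mixed. In 9630.m01750 and 9630.m01754 the log2 ratios were -0.20 and -0.18, and in 9631.m04090 and 9631.m04096 they were -0.10 and 0.12. The higher model 9631.m04325 was paired with 9631.m04331, whose log2 ratio was -0.44. The lower model 9638.m01682, at -2.03, was paired with 9638.m01673, at -0.09, with 5 CDS models between them. One of these 5, 9638.m01678, was high in every sample, from 2682 in panicle to 5100 in IR64 shoot. Whether probes of models with close numbers detect the same RNA was not tested.

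The 2 extracts of Nipponbare shoot gave similar levels for most members. The median log2 ratio of extract 1 over extract 2 was -0.15 over the members (range -1.49 to 0.96) and 0.09 over all CDS models. Each extract is 1 sample and its hybridizations are repeats, so this carries no test. Extract 1 was read only in Cy5 and extract 2 mostly in Cy3. In Cy5 alone, with 3 hybridizations against 1, the median was 0.07 over the members and 0.15 over all CDS models. This choice also leaves out all shoot hybridizations of replicate 2, so dye, replicate and arrays change together in it. Of the 157 members, 141 met the rule with extract 1 alone, 149 with extract 2 alone and 133 with each of the 2 taken alone.

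In 13 members all extract 1 values were below all extract 2 values (8.28%, against 1.60% of all CDS models), and in 5 all were above (3.18%, against 3.45%). The 5 were 9639.m00290, 9636.m01897, 9632.m05714, 9629.m05835 and 9639.m01999. In 7 members extract 2 was over 2 times extract 1, and in 0 was extract 1 over 2 times extract 2. The rule used these same 8 shoot values, 5 of them from extract 2, so nothing is read from these counts or from their difference to all CDS models.

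The 3 members with the largest difference between extracts are given by hybridization. In 9633.m00575 extract 1 gave 5503, 8188 and 7644. Extract 2 gave 7363 in Cy5 on the callus arrays of replicate 1, and 19778, 21459, 24517 and 25501 in Cy3 in replicate 2. The single replicate 1 hybridization of extract 2 was in the range of extract 1. In IR64 shoot, where the dyes were the other way round, the signal was also low in replicate 1, at 5120, and high in replicate 2, at 17448.

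In 9640.m01209 and 9635.m01183 both cultivars were again higher in replicate 2. Nipponbare shoot gave 2615 to 5722 for 9640.m01209 in replicate 1 and 5911 to 13712 in replicate 2, and IR64 shoot gave 3499 and 9160. It gave 2973 to 5288 for 9635.m01183 in replicate 1 and 5894 to 8820 in replicate 2, and IR64 shoot gave 4457 and 7852. In all 3 the ratio of extract 1 over extract 2 was near 0 on the log2 scale in Cy5 alone, at 0.05, 0.21 and -0.10. That comparison holds 1 hybridization of extract 2, which is also of replicate 1. The 3 models were picked for their extract difference over these same values. Whether replicate, extract or dye lay behind it was not tested.

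Over the members, Nipponbare shoot was slightly higher in replicate 2, by 0.18 on the log2 scale at the median, against -0.06 over all CDS models. All 4 shoot hybridizations of replicate 2 were above all 4 of replicate 1 in 23 members (14.6%, against 4.07% of all CDS models), and below in 6 (3.82%, against 2.87%). IR64 shoot was also higher in replicate 2 in 19 of the 23, and also lower in 5 of the 6. Over all members the median log2 ratio of replicate 2 over replicate 1 in IR64 shoot was 0.14, against 0.00 over all CDS models. The 23 and the 6 were picked partly on the Nipponbare shoot channels of the IR64 arrays, and the rule used those channels. These counts are therefore descriptions, and nothing is read from them. Replicate, dye of the shoot and, but for the callus arrays, shoot extract change together, so they cannot be told apart in Nipponbare shoot, and in IR64 shoot the dye changes the opposite way.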

How the data were processed

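The authors scanned the 16 two-color arrays (32 channels, 2 array sets) and made the files with Agilent Feature Extraction (8.1 in the methods and, as 8.1.1.1, in the file headers, and 7.5 in the submitters' processing notes), which subtracted the background and normalized the dyes by a locally weighted fit on rank-consistent probes. The deposited signal of each probe is an intensity on a linear scale, and the deposited log ratio is on the log10 scale. The value tables hold the same log10 ratios, which the authors turned to the direction of tissue over shoot. A spot was well above background by the authors' software when it differed from its local background at p under 0.01 and exceeded 2.6 standard deviations of the background. The number of arrays limits the precision.

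From the deposited intensities each channel was scaled to a median of 1000 over the probes other than controls, as in the methods, and members were found by the rule that opens the report. Outlier spots stayed in these levels. Log2 ratios of tissue over shoot, without outlier spots, were fitted with limma 3.58.1 in R 4.3.3, 1 fit per array set with a coefficient for each of the 4 comparisons, with empirical Bayes moderation and Benjamini-Hochberg adjustment over both sets at 0.05. The 1028 probes on both sets were averaged. The alternatives were other floors, scalings and limits, each shoot extract alone, normexp correction with an offset of 50, the replicate as a block, and leaving out replicates.

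The members and lists were chosen with earlier results of these data known. Named members are the 10 with the highest shoot value, the 5 lowest and 5 highest IR64 ratios among the 155 members well above background in all 4 IR64 channels, those closest to the limits, and the 3 with the largest extract difference. Others were named after their values were seen. Lists of gene functions and cell type markers could not be applied, since no identifier matched a gene name.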

Additional observations from a re-analysis of the deposited data

Results flagged for a closer look

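Of the 157 members, each with 8 Nipponbare shoot hybridizations, 1 held a value far from the other 7 by Dixon's test. In 9637.m03159, 1 of the members next to the limit of the other tissues, the shoot signal on the root arrays of replicate 2 was 936, while the next lowest was 2549. Chance alone marks about 1 in 20 such groups.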

How the results depend on the processing

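The list of 157 members was the same with outlier spots left out, with the first step of the background test as the floor, and with no floor. Signals not scaled between arrays gave 94 models, 90 of them members, normexp with loess and Aquantile gave 95, of which 84 were members, and the wider limits of 4000 and 500 gave 11, all members. With the median of only the bright probes set to 1000 there were 109 models, of which 70 were members, so which models pass depends on the scale. Leaving out a replicate gave 143 to 162 models. Of the 157 members, 49 were in the list of every alternative, the wider limits not counted.

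The count of members lower in IR64 was between 15 and 20 under every alternative but 2. It was 0 on the IR64 arrays alone, with 2 ratios per probe, and 3 among the 11 models of the wider limits. Leaving out 1 replicate of any comparison gave 15 to 16 members lower and 0 to 2 higher. The call of a higher member was lost most often. With IR64 replicate 2 left out 0 members were higher, and 1 was with IR64 replicate 1, either callus replicate or either root replicate left out. The count higher was 7 with normexp and loess, 4 with dim probes left out, 0 on the IR64 arrays alone and 1 with the wider limits.

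With the replicate as a block 19 members were lower and 3 higher, including the 16 and 2 of the fit without it. By the labels, equal replicate numbers share the dye and, but for callus replicate 1, the shoot extract, and name no shared batch of the other samples. Residuals of equal numbers had r from 0.213 to 0.494 between comparisons.

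The median log2 ratio of IR64 over Nipponbare shoot was -0.07 without replicate 1 and -0.02 without replicate 2. The median of extract 1 over extract 2, -0.15, became 0.07 in Cy5 alone and 0.10 with normexp, loess and Aquantile, and the cause was not tested. The count of members over 2000 in IR64 shoot was between 115 and 134. Dim spots limit the ratios of 2 members, 9634.m00101 and 9629.m05727.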
